A study of Mus musculus with 6 samples.

Results

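Oxidative phosphorylation is carried out by the 4 electron transfer complexes of the mitochondrial inner membrane and by the ATP synthase. Its transcripts were described here in damaged hepatocytes (dHeps) that had been cultured with compounds. The members were taken by name from the deposited count table: symbols that begin with Nduf, Uqcr or Atp5, the succinate dehydrogenase genes Sdha to Sdhd, symbols that begin with Cox4 to Cox8, and the protein-coding genes of mitochondrial DNA. After 14 pseudogene rows were dropped, 112 of 52323 rows remained, of which 99 are nuclear and 13 are encoded in mitochondrial DNA. The name rule also takes in 8 assembly factors of complex I and gene copies of subunits. It leaves out subunits with other names, such as cytochrome c1.

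The dHeps came from livers of mice injured with carbon tetrachloride (CCl4) that carried the AAV-TBG-Cre:Rosa-LSL-tdTomato tracing system, in which the liver-specific TBG promoter drives Cre from a viral vector and Cre switches on the tdTomato reporter. All cells, controls included, came from such injured livers and spent 16 days in serum-free Hepatocyte Maintenance Medium. In the study's methods the mice had a C57BL/6 background and entered tracing and injury as young adults of both sexes. The labels gave no age at isolation. The DMSO group received solvent. The 3C group received CID755673 (50 µM), which inhibits protein kinase D, GSK429286A (2 µM), which inhibits the kinase ROCK, and ETC-1002 (5 µM). ETC-1002 blocks ATP citrate lyase, and the paper names it as an activator of the kinase AMPK. The 5C group received the same 3 compounds at the same doses together with salidroside (5 µM), a plant glycoside, and forskolin (2 µM), which activates adenylate cyclase. There were 2 libraries of bulk RNA per group, 6 in all, and the labels did not say whether replicates were separate animals, so p-values measure the spread between these samples, which may be technical.

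Library totals lay between 65916573 and 69245895 counts, a ratio of 1.05. The tissue label was liver and the cell type label hepatocytes. The lists examined held 14 hepatocyte markers, 17 macrophage markers, 12 stellate and fibroblast markers, 9 endothelial markers and 7 cholangiocyte markers. All had counts in at least 1 library, a low bar at this depth. The paper describes this isolation as enriched for tdTomato-positive cells and reports mesenchymal genes in injured hepatocytes. The markers therefore do not by themselves tell which cell types were present. The hepatocyte markers summed to 2252 to 2420 counts scaled to a library total of 1000000 (CPM) in DMSO, 11894 to 12571 in 3C and 11774 to 16945 in 5C. The macrophage markers summed to 14415 to 15525 CPM in DMSO, 5195 to 5208 in 3C and 3436 to 3498 in 5C. The other lists summed to 8304 to 9646, 7300 to 7386 and 11976 to 12889 CPM (stellate and fibroblast), 453 to 490, 190 to 227 and 251 to 357 CPM (endothelial) and 2903 to 3386, 3522 to 3710 and 2391 to 2688 CPM (cholangiocyte) in DMSO, 3C and 5C. Single genes did not all follow these 3 sums in the edgeR test described below. In 5C against DMSO, 5 of 9 endothelial markers were higher and 2 lower (median log2 fold change 1.31), and 3 and 2 in 3C. Of 7 cholangiocyte markers, 6 were higher and 1 lower in 5C (median 1.32), and 5 and 0 in 3C. Of 12 stellate and fibroblast markers, 6 were higher and 3 lower in 5C, and 5 and 5 in 3C. The marker levels moved with the groups compared below, and their part in the results was not tested. In bulk RNA, fewer cells of a type and less RNA per cell cannot be told apart.

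In textbook terms, complex I (NADH dehydrogenase) and complex II (succinate dehydrogenase) pass electrons to coenzyme Q, complex III passes them on to cytochrome c, and complex IV (cytochrome c oxidase) hands them to oxygen. Complexes I, III and IV pump protons, and complex V, the ATP synthase, uses the proton gradient to make ATP. Complexes I, III, IV and V mix subunits translated inside mitochondria from the mitochondrial DNA with nuclear subunits that are imported, while complex II is wholly nuclear. Hepatocytes are rich in mitochondria and depend on this pathway for urea synthesis, gluconeogenesis and fatty acid oxidation.

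Sequences are shown first where they bear on how the counts can be read. Mouse mitochondrial genes lie end to end, and 3 pairs overlap, so that a read in the shared bases fits both genes. In the lines below, from GRCm39 and written 5′ to 3′ on the forward strand, capitals mark the bases that belong to both genes of a pair. The overlap was 43 bases for mt-Atp8 and mt-Atp6 (window chrM:7915-7981), 7 bases for mt-Nd4l and mt-Nd4 (chrM:10149-10191) and 14 bases for mt-Nd5 and mt-Nd6 (chrM:13540-13577).
mt-Atp8/mt-Atp6: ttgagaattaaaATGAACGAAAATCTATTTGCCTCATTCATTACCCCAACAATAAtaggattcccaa
mt-Nd4l/mt-Nd4: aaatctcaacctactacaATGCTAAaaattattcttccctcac
mt-Nd5/mt-Nd6: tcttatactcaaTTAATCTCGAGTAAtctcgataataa
The capitals of the first and second line begin with the ATG start codon of the downstream gene. In the third line the genes lie on opposite strands, and because the library kit does not mark strand, reads there cannot be assigned to mt-Nd5 or mt-Nd6 by strand. The same holds along all of mt-Nd6, where RNA of the opposite strand could also be counted.

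The same DMSO libraries served as controls for 3C and for 5C, so results against DMSO share these controls and are given side by side. A member was called changed at a Benjamini-Hochberg adjusted p under 0.05 in the quasi-likelihood test of edgeR over all 19135 genes tested, and 106 of the 112 members were tested. In 5C, 38 members were higher than in DMSO and 0 were lower, which is 35.8% of those tested, while 15.6% of all genes tested were higher and 13.1% lower. In 3C, 39 members (36.8%) were higher and 0 lower, beside 12.7% and 11.8% of all genes. The direction held beyond the changed members: 100 of 106 had a positive log2 fold change in 5C and 99 in 3C, and the median was 0.27 in both comparisons, beside 0.00 and 0.01 over all genes. Among the members not called, 19 in 5C and 15 in 3C reached an unadjusted p under 0.05.

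The changes were small. An absolute log2 fold change above 1 together with the adjusted p was reached by 1 member in 5C (Ndufa4l2) and by 2 in 3C (Ndufa4l2 and Cox4i2), whereas 11.7% and 9.45% of all genes reached it. Among genes whose mean was 10 CPM or more, 19.7% of all genes were higher in 5C and 16.6% in 3C. Of the 79 nuclear members above that level, 32 (40.5%) were higher in 5C and 25 (31.6%) in 3C. Between the cocktails little differed: Atp5g1 was the 1 member higher in 5C than in 3C, and mt-Nd2, mt-Nd4 and mt-Nd4l were the 3 that were lower. The background there was 7.33% higher and 5.33% lower (10.8% higher at 10 CPM and above, and 3.01% changed by more than 1 on the log2 scale). DESeq2 counted 46, 44 and 7 changed members in the 3 comparisons. It also called more genes in all, 5912, 5174 and 3049, beside 5485, 4689 and 2423 by edgeR, both directions counted.

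The 6 members without a test were Cox7b2, Cox8b, Cox8c, Ndufb11b and Atp5o, at 0 counts in every library, and Ndufa11b, with counts of 2 and 0 in DMSO, 1 and 7 in 3C and 0 and 0 in 5C. Cox8b is the heart and muscle form of a cytochrome c oxidase subunit. Atp5o bears the name of the oligomycin-sensitivity subunit of the ATP synthase, but the count table lists it under a gene model that shares 63.0% of its sequence words with another gene, so the 0 does not describe that subunit.

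**Figure D1:**
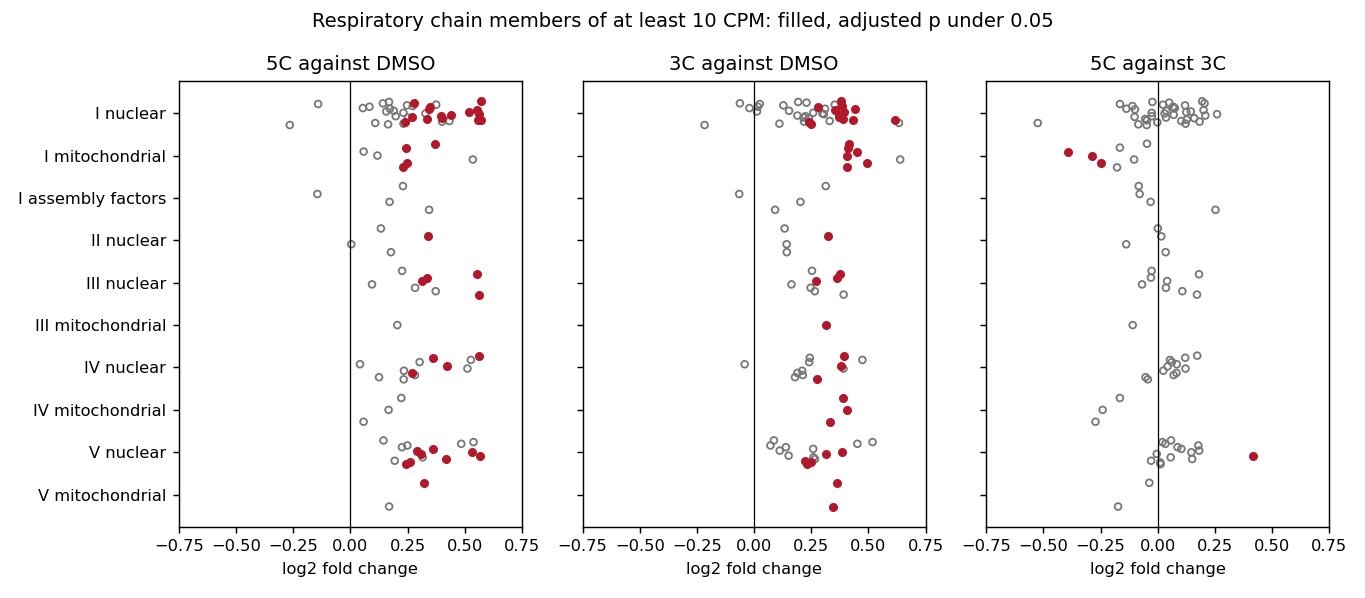
Log2 fold change of each tested member with a mean of at least 10 CPM (x axis), by complex and genome (y axis), for 5C and 3C against DMSO and for 5C against 3C; 1 point is 1 gene, and filled points have an adjusted p under 0.05. In the first and second panel every filled point lies to the right of 0, and in the third 1 nuclear complex V gene lies to the right and 3 mitochondrial complex I genes to the left.

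Of the mitochondrially encoded mRNAs, more rose in 3C than in 5C. In 3C, 12 of 13 rose, with a median log2 fold change of 0.41. In 5C, 5 of 13 rose, with a median of 0.22. Set against each other, all 13 had a negative log2 fold change in 5C relative to 3C, with a median of -0.17, and 3 passed the test. None of the 3 passed it without 3C replicate 1, 3C replicate 2 or 5C replicate 2, and mt-Nd2 and mt-Nd4 did not without 5C replicate 1 either, when edgeR assumed the lone library to vary like the other groups. These genes are read from long polycistronic transcripts, so they do not stand for 13 separate events.

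The 3 genes that differed between the cocktails belong to complex I. The mt-Nd2 mRNA, for a membrane subunit of complex I, stood at 526 and 508 CPM in DMSO, 763 and 726 in 3C and 622 and 588 in 5C. All 3 groups were separate, with 3C highest and DMSO lowest. Its log2 fold change was 0.49 in 3C (SE 0.07, edgeR adjusted p = 0.000611), 0.25 in 5C (SE 0.07, edgeR adjusted p = 0.0219) and -0.25 in 5C against 3C (SE 0.07, edgeR adjusted p = 0.0408). The mt-Nd4l mRNA was at 70.8 and 66.3 CPM in DMSO, 98.1 and 93.3 in 3C and 73.5 and 67.4 in 5C. Here 5C overlapped DMSO and 3C stood apart, with a log2 fold change of 0.45 in 3C and -0.39 in 5C against 3C (SE 0.07, edgeR adjusted p = 0.00732). The mt-Nd4 mRNA, which follows mt-Nd4l on the same strand, had 612 and 536 CPM in DMSO, 787 and 766 in 3C and 633 and 597 in 5C. It also overlapped between 5C and DMSO, and its log2 fold change was 0.40 in 3C (edgeR adjusted p = 0.00413) and -0.29 in 5C against 3C (edgeR adjusted p = 0.0395).

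Other complex I mRNAs rose in both cocktails. For mt-Nd1 the levels were 1133 and 1071 CPM in DMSO, 1486 and 1504 in 3C and 1311 and 1240 in 5C, and for mt-Nd5 they were 633 and 588, 852 and 806, and 739 and 688. For mt-Nd6, the only protein gene read from the other strand, they were 178 and 164 CPM in DMSO, 239 and 227 in 3C and 227 and 209 in 5C. The mt-Nd6 counts could hold RNA of the opposite strand. In these 3 genes DMSO lay below both cocktails, and 5C reached into the range of 3C for mt-Nd6 alone. The log2 fold changes in 5C were 0.23, 0.24 and 0.37, and in 3C 0.41, 0.41 and 0.42. The remaining gene, mt-Nd3, had 42.1 and 65.0 CPM in DMSO, 90.7 and 80.3 in 3C and 71.1 and 82.5 in 5C. Its DMSO replicates differed by more than those of the other mitochondrial mRNAs, and the edgeR adjusted p was 0.0995 in 3C and 0.141 in 5C.

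Cytochrome b, encoded by mt-Cytb, is the mitochondrial subunit of complex III. Its mRNA was at 715 and 652 CPM in DMSO, 879 and 859 in 3C and 791 and 764 in 5C. The groups did not overlap, and the log2 fold change was 0.32 in 3C (edgeR adjusted p = 0.00889) and 0.21 in 5C (edgeR adjusted p = 0.0523).

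The 3 catalytic subunits of complex IV rose in 3C and did not pass the test in 5C. The mt-Co1 mRNA, the most abundant member per length, had 3376 and 2867 CPM in DMSO, 4028 and 3992 in 3C and 3265 and 3146 in 5C. Both 5C values lay between the DMSO replicates, and the log2 fold change was 0.33 in 3C (edgeR adjusted p = 0.0168) and 0.06 in 5C (edgeR adjusted p = 0.665). The mt-Co2 mRNA had 663 and 598 CPM in DMSO, 852 and 858 in 3C and 727 and 671 in 5C, and mt-Co3 had 696 and 769, 1006 and 956, and 867 and 823. Their log2 fold changes were 0.41 and 0.39 in 3C and 0.17 and 0.22 in 5C. The difference between 5C and 3C did not pass the test for any of these genes, with edgeR adjusted p-values of 0.0632, 0.0646 and 0.232 for mt-Co1, mt-Co2 and mt-Co3.

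The overlapping pair mt-Atp8 and mt-Atp6, whose shared bases are printed above, encodes membrane subunits of the ATP synthase. The mt-Atp8 mRNA had 72.2 and 64.5 CPM in DMSO, 93.7 and 85.7 in 3C and 85.2 and 83.6 in 5C, and rose in 3C (log2 fold change 0.36) and 5C (0.32). The mt-Atp6 mRNA had 695 and 775 CPM in DMSO, 986 and 922 in 3C and 849 and 785 in 5C, and rose in 3C (0.34, edgeR adjusted p = 0.0144), while its value in 5C was 0.17 (edgeR adjusted p = 0.168). The mitochondrial ribosomal RNAs, which come from the same DNA, did not pass the test in either cocktail against DMSO. In 5C against 3C, mt-Rnr2 had a log2 fold change of -0.27 (edgeR adjusted p = 0.0305), and it was the 1 of both rRNAs that changed. Total RNA was the labelled molecule, and the share of rRNA in a library depends on how it was selected, which was not given in the sources used here.

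**Figure D2:**
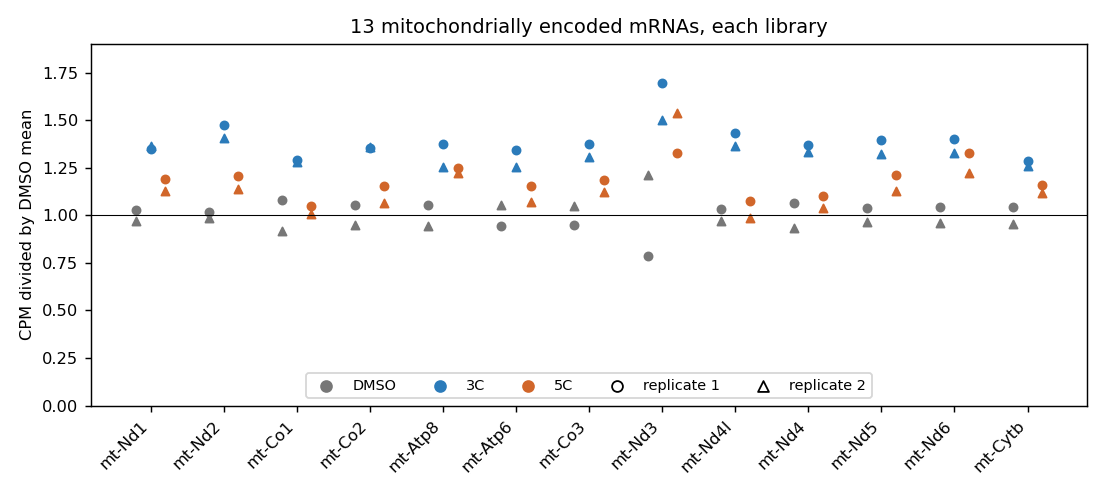
CPM of each of the 13 mitochondrially encoded mRNAs in each library, divided by the mean of the 2 DMSO libraries (y axis); circles are replicate 1 and triangles replicate 2, and genes are in their order on the mitochondrial genome. The 3C points lie above the DMSO points for every gene, while the 5C points overlap DMSO for mt-Co1, mt-Nd4 and mt-Nd4l.

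Taken as 1 quantity, the 13 mRNAs made up 0.941% and 0.872% of all counts in DMSO, 1.22% and 1.19% in 3C and 1.03% and 0.974% in 5C. The 95% Wilson intervals, which cover counting error only, had widths far below these differences (0.939% to 0.943% for DMSO replicate 1). The group ranges did not overlap. The difference was 0.295 percentage points for 3C against DMSO, 0.0935 for 5C against DMSO and -0.202 for 5C against 3C. With 2 libraries against 2 an exact two-sided permutation test cannot go below p = 0.33, the value reached in each comparison.

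Some mitochondrial mRNAs have near-identical copies in nuclear DNA that are rows of their own in the count table. On chromosome 1, the copy Gm28661 had 99.4% to 99.8% as many counts as mt-Co2, Gm28437 had 99.6% to 99.9% as many as mt-Co3, and Gm10925 had 100.3% to 102.3% as many as mt-Atp6. Gm10222 followed mt-Nd4l at 99.4% to 100.2%, Gm28439 followed mt-Nd4 at 41.0% to 44.1% and Gm29216 followed mt-Co1 at 13.1% to 15.3%. How reads that fit several places were counted was not given in the sources used here, so the levels of these genes are uncertain. The genes mt-Nd1, mt-Nd6, mt-Cytb and mt-Atp8 shared no 50-base word with another gene, and 4 of 4 rose in 3C and 3 of 4 in 5C. This search covered annotated transcripts only. It cannot see shorter overlaps, such as that of mt-Atp8 with mt-Atp6, or copies without annotation. It also does not address RNA of the opposite strand across mt-Nd6, so the levels of these 4 genes are not free of doubt either. Adding the 8 nuclear copies to the sum gave differences of 0.392, 0.125 and -0.267 percentage points in the same order.

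The nuclear members moved by similar amounts in both cocktails. Their summed level was 5417 and 6090 CPM in DMSO, 6961 and 6910 in 3C and 6958 and 6837 in 5C. Both cocktails lay above DMSO and overlapped each other, at 20.5% above the DMSO mean in 3C and 19.9% in 5C. The DMSO replicates themselves differed by more than those of 3C or 5C. The mitochondrially encoded sum was 9411 and 8725 CPM in DMSO, 12160 and 11876 in 3C and 10262 and 9743 in 5C, which was 32.5% above DMSO in 3C and 10.3% in 5C. In 5C it was 16.8% below 3C, beside 0.542% for the nuclear sum. The ratio of mitochondrial to nuclear counts was 1.74 and 1.43 in DMSO, 1.75 and 1.72 in 3C and 1.47 and 1.43 in 5C. In DMSO it spanned nearly the whole range of the cocktails, so a shift against DMSO was not detectable (exact permutation p = 0.667 for each cocktail), while 3C and 5C did not overlap (exact permutation p = 0.33, the smallest possible).

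**Figure D3:**
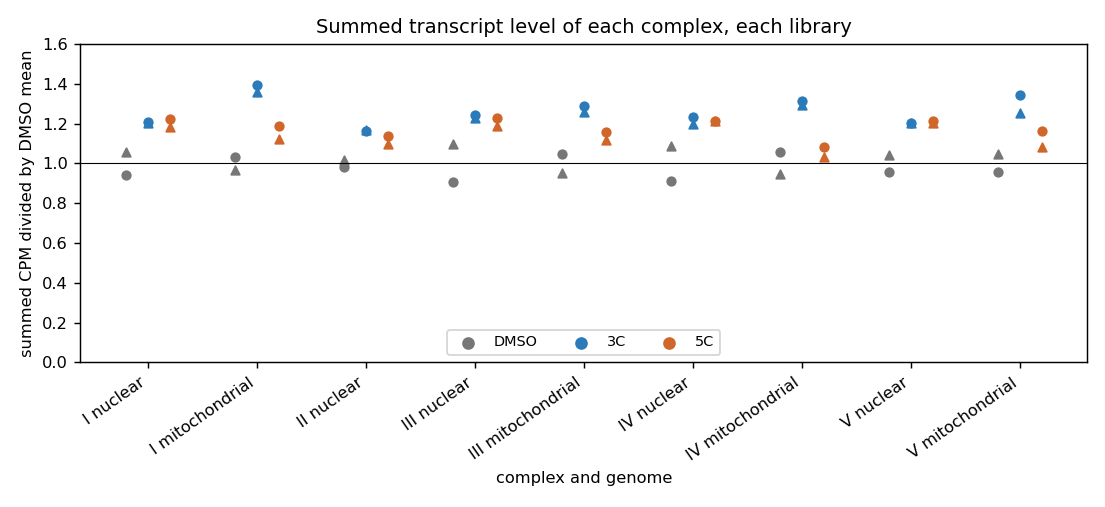
Summed CPM of the nuclear and of the mitochondrially encoded members of each complex in each library, divided by the mean of the 2 DMSO libraries (y axis, from 0); circles are replicate 1 and triangles replicate 2. The nuclear sums of 3C and 5C lie close together above DMSO, and the mitochondrial sums of 5C lie between DMSO and 3C or, for complex IV, overlap DMSO.

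Complex I is the largest complex, and 15 of its 39 tested nuclear members were higher in 5C and 13 in 3C. The changed genes were mostly accessory subunits, which surround the catalytic core: 13 of 30 in 5C and 12 of 30 in 3C. Among the nuclear core subunits, Ndufv1 binds the NADH-oxidising flavin and had 70.1 and 73.8 CPM in DMSO, 89.3 and 83.2 in 3C and 92.9 and 79.7 in 5C. Both cocktails lay above DMSO, with a log2 fold change of 0.28 in 5C (edgeR adjusted p = 0.0352) and 0.23 in 3C (edgeR adjusted p = 0.0832). Ndufs1, the large iron-sulfur subunit, had 75.9 and 77.9, 81.2 and 73.9, and 81.3 and 76.4 CPM. Its groups overlapped, and the log2 fold change was 0.05 in 5C and -0.02 in 3C.

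Among the accessory subunits, Ndufv3, which sits beside the flavin subunit, showed, with Ndufa5, the largest rise in 5C of the members of at least 10 CPM. It had 40.0 and 41.6 CPM in DMSO, 53.7 and 54.8 in 3C and 63.3 and 56.5 in 5C. The 3 groups were separate, with log2 fold changes of 0.57 in 5C (SE 0.08, edgeR adjusted p = 0.00067) and 0.38 in 3C (SE 0.08, edgeR adjusted p = 0.008). Ndufa5 had 14.2 and 20.1 CPM in DMSO, 26.5 and 27.4 in 3C and 24.3 and 26.1 in 5C. Both cocktails lay above DMSO, whose replicates were far apart, and the log2 fold change was 0.57 in 5C (SE 0.16, edgeR adjusted p = 0.0258) and 0.62 in 3C (SE 0.16, edgeR adjusted p = 0.0206). Ndufa6 was steadier, at 40.7 and 43.1 CPM in DMSO, 57.9 and 57.8 in 3C and 59.8 and 62.1 in 5C, and rose by 0.56 in 5C and 0.43 in 3C on the log2 scale.

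In 2 further accessory subunits the cocktails took a different order. Ndufb3 had 14 and 13.5 CPM in DMSO, 16.9 and 17.9 in 3C and 19.4 and 20.8 in 5C, with log2 fold changes of 0.56 in 5C (edgeR adjusted p = 0.00488) and 0.31 in 3C (edgeR adjusted p = 0.0837). Ndufc1 had 21.3 and 25.1, 31.6 and 33.0, and 29.7 and 28.4 CPM, and rose by 0.34 in 5C and 0.44 in 3C. For Ndufb3 5C was highest and for Ndufc1 3C was, yet neither difference between the cocktails passed the test. The smallest changes that passed it included Ndufa13, at 54.2 and 56.5, 67.3 and 66.5, and 66.5 and 62.6 CPM, with 0.24 in each cocktail, and Ndufa10, at 62.4 and 67.5, 78.9 and 79.1, and 71.5 and 72.3 CPM, with 0.25 in 3C and 0.17 in 5C (edgeR adjusted p = 0.133). None of the 8 Ndufaf assembly factors passed the test of edgeR, DESeq2 or limma in any comparison, and 1 of 8 had an unadjusted edgeR p under 0.05 in each cocktail against DMSO. Their log2 fold changes lay between -0.33 and 0.40 in 5C and between -0.06 and 0.31 in 3C.

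Complex II, the link to the citric acid cycle, changed in 1 of 4 genes in each cocktail. Sdhc, a membrane anchor, rose by 0.34 in 5C (edgeR adjusted p = 0.00393) and 0.32 in 3C (edgeR adjusted p = 0.00583). Sdha, the flavoprotein that oxidises succinate, had 168 and 168 CPM in DMSO, 190 and 189 in 3C and 192 and 183 in 5C. Every treated library lay above both DMSO libraries, yet the log2 fold change of 0.18 in 5C had an edgeR adjusted p of 0.0666. With an offset for transcript length, described below, it was 0.19 (edgeR adjusted p = 0.0298), which made 2 of 4 complex II genes higher in 5C. Sdhb, the iron-sulfur subunit, had 81.4 and 89.5, 94.4 and 98.4, and 83.8 and 85.4 CPM, and overlapped between 5C and DMSO.

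In complex III, 4 of 8 nuclear members rose in 5C and 3 in 3C. The Rieske iron-sulfur protein Uqcrfs1 had 80.2 and 88.8 CPM in DMSO, 112 and 110 in 3C and 106 and 104 in 5C. The cocktails lay above DMSO and close to each other, with log2 fold changes of 0.33 in 5C (SE 0.07, edgeR adjusted p = 0.0086) and 0.36 in 3C (SE 0.07, edgeR adjusted p = 0.0063). The core protein Uqcrc1 had 141 and 161, 176 and 171, and 168 and 151 CPM. Its 5C values overlapped DMSO, and it passed neither test, with log2 fold changes of 0.09 and 0.16.

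In complex V, 8 of 16 nuclear members rose in 5C and 5 in 3C, and all 16 had a positive log2 fold change in 5C. Atp5b (beta) and Atp5a1 (alpha) form the catalytic F1 head. Atp5b had 616 and 650 CPM in DMSO, 779 and 760 in 3C and 761 and 736 in 5C, and Atp5a1 had 508 and 512, 612 and 611, and 595 and 595. Neither gene overlapped between DMSO and a cocktail, and their log2 fold changes were 0.26 and 0.24 in 5C and 0.25 and 0.23 in 3C. Atp5c1 (gamma), the central stalk, had 108 and 114, 131 and 133, and 123 and 127 CPM, and rose in 3C (0.22, edgeR adjusted p = 0.0437) with 0.19 in 5C (edgeR adjusted p = 0.0657). Atpif1, the inhibitor of the synthase, had 47.5 and 66.9, 77.7 and 79.0, and 79.2 and 72.5 CPM. It was above DMSO in all treated libraries, but the DMSO replicates were far apart, and the log2 fold change of 0.42 in each cocktail had edgeR adjusted p-values of 0.080 (5C) and 0.0916 (3C).

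The c-ring of the synthase, through which protons pass, is built from 1 protein made by 3 genes that differ in their import sequence. Of these, Atp5g1 (chr11:95959678-95966757, reverse strand, GRCm39) was the 1 member higher in 5C than in 3C. It had 56.5 and 62.3 CPM in DMSO, 65.5 and 69.3 in 3C and 87.8 and 86.0 in 5C. Both 5C libraries stood above all others, while 3C lay close to DMSO. The log2 fold change was 0.57 in 5C (SE 0.08, edgeR adjusted p = 0.000598), 0.15 in 3C (edgeR adjusted p = 0.216) and 0.42 in 5C against 3C (SE 0.08, edgeR adjusted p = 0.00872). In the deposited FPKM, which are scaled to transcript length and library size, the order was less clear, at 57.0 and 56.8 in DMSO, 90.2 and 65.9 in 3C and 86.9 and 118 in 5C, so that 5C and 3C overlapped. Limma on log2(FPKM + 1) gave an adjusted p of 0.239 for 5C against 3C, and leaving out 3C replicate 1, 3C replicate 2 or 5C replicate 2 gave edgeR adjusted p-values of 0.105, 0.0529 and 0.0515.

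The other c-ring genes followed both cocktails. Atp5g3 had 103 and 114 CPM in DMSO, 143 and 147 in 3C and 149 and 160 in 5C, with log2 fold changes of 0.53 in 5C (edgeR adjusted p = 0.00112) and 0.38 in 3C (edgeR adjusted p = 0.00779). Atp5g2 had 78.3 and 94.3, 109 and 110, and 109 and 102 CPM, and rose by 0.31 in each. Per length, Atp5g3 was the main gene, with 44.6%, 45.1% and 44.9% of the FPKM of the family in DMSO, 3C and 5C. Atp5g1 took 18.6%, 19.6% and 23.7%, and its replicates within 5C were 20.8% and 26.7%.

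In complex IV, 5 of 18 tested nuclear members rose in each cocktail. Ndufa4, once assigned to complex I and now to complex IV, had 53.6 and 69.8 CPM in DMSO, 87.1 and 78.6 in 3C and 90.3 and 90.1 in 5C. Both cocktails lay above DMSO, with log2 fold changes of 0.56 in 5C (SE 0.12, edgeR adjusted p = 0.00883) and 0.39 in 3C (SE 0.12, edgeR adjusted p = 0.0493). Several complex IV subunits exist in alternative forms, which replace each other by tissue or oxygen supply. The liver forms predominated here: per length, Cox4i1 took at least 99.7% of its pair, Cox6a1 98.9% to 99.7%, Cox6b1 98.2% to 99.6%, and Cox8a all of the FPKM of its family.

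The largest change of any member with counts in every library was in Ndufa4l2 (chr10:127350818-127353038, forward strand, GRCm39), a relative of Ndufa4 known as a target of hypoxia-inducible factor. It had 238 and 229 counts in DMSO, 777 and 1029 in 3C and 605 and 1099 in 5C. All treated libraries were more than 2 times above DMSO, and 3C and 5C overlapped. The log2 fold change was 1.83 in 5C (SE 0.28, edgeR adjusted p = 0.00154) and 1.9 in 3C (SE 0.28, edgeR adjusted p = 0.00151). In FPKM it was 3.21% to 4.28% of the sum of Ndufa4 and Ndufa4l2 in DMSO, 8.14% to 11.1% in 3C and 5.98% to 10.4% in 5C. The gene overlaps Shmt2, with 59.7% of its words shared, and its counts could hold reads of that gene. Shmt2 itself had a log2 fold change of -0.14 in 5C (edgeR adjusted p = 0.152) and -0.26 in 3C (edgeR adjusted p = 0.022), opposite to Ndufa4l2.

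Cox4i2 (chr2:152595625-152606959, forward strand, GRCm39), the lung and hypoxia form of Cox4, was near the limit of detection. It had 5 and 0 counts in DMSO, 35 and 51 in 3C and 18 and 23 in 5C. The groups were separate and in the order 3C, 5C, DMSO, but all levels were under 1 CPM. The fitted log2 fold change was 4.0 in 3C (SE 1.18, edgeR adjusted p = 0.0366) and 2.95 in 5C (SE 1.17, edgeR adjusted p = 0.0946), and it depends on the prior count because 1 DMSO library had none. Cox6a2, the heart and muscle form, had 145 and 159 counts in DMSO, 65 and 143 in 3C and 105 and 56 in 5C, and Cox6b2, a testis form, had 25 and 40, 74 and 24, and 102 and 87. Neither passed the test.

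Among the common forms, Cox4i1 had 204 and 235 CPM in DMSO, 279 and 266 in 3C and 264 and 247 in 5C, and rose in 3C (0.28, edgeR adjusted p = 0.0445) with 0.23 in 5C (edgeR adjusted p = 0.074). Cox6a1 had 161 and 182, 204 and 197, and 214 and 195 CPM, and Cox8a had 75.3 and 96.0, 110 and 97.9, and 109 and 109. They rose in 5C, by 0.27 and 0.36, and not in 3C (0.19 and 0.24), although the difference between 5C and 3C did not pass the test for either. Cox7a2 had 37.5 and 43.0, 57.0 and 50.1, and 53.8 and 52.8 CPM, with 0.42 in 5C and 0.38 in 3C. Its relative Cox7a2l, a factor of respiratory supercomplexes, had 117 and 119, 112 and 122, and 115 and 125 CPM, with overlapping groups. Per length, Cox7a2 took 34.2% to 37.8% of the Cox7a family in DMSO, 39.9% to 45.4% in 3C and 41.4% to 43.1% in 5C. Cox7a1, the muscle form, had 11 and 14, 6 and 21, and 27 and 22 counts, and Cox6b1 had 68.6 and 83.0, 91.6 and 88.0, and 88.2 and 88.1 CPM without passing the test.

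**Figure D4:**
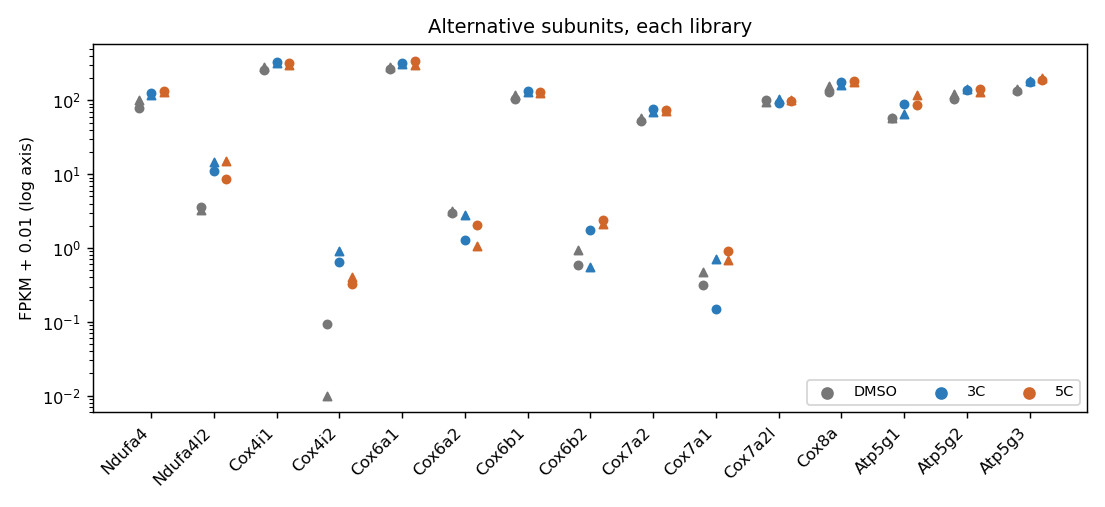
FPKM plus 0.01 of the alternative subunits in each library (log y axis); circles are replicate 1 and triangles replicate 2. Ndufa4l2 and Cox4i2 lie well above DMSO in both cocktails but far below Ndufa4 and Cox4i1.

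Per length, the mitochondrial mRNAs stood above the nuclear members: mean FPKM over all libraries lay between 186 and 2011 (median 540) for the 13 mitochondrial genes, and the median of the 94 nuclear members with any FPKM was 53.2, with a maximum of 338. The order at the top was mt-Co1 (2011), mt-Nd1 (1216) and mt-Atp6 (1105). Within the mitochondrial counts, mt-Co1 took 34.4% in DMSO, 33.4% in 3C and 32.1% in 5C, with 32.9% and 35.9% in the DMSO replicates.

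The transcripts of this pathway are short, and short transcripts moved together in these libraries. The length implied by the ratio of CPM to FPKM had a median of 0.885 kb for the nuclear members and 0.875 kb for the mitochondrial ones, beside 3.32 kb for the other nuclear genes of at least 10 CPM. Of those other genes, the 100 under 0.6 kb had a median log2 difference of 0.29 in 5C against DMSO, 0.24 in 3C against DMSO and 0.30 between DMSO replicate 2 and replicate 1. The 2424 over 5 kb had -0.14, -0.08 and -0.13. In the same sense the nuclear members under 0.6 kb (10 genes) had 0.35, 0.35 and 0.47, and those of 2.5 to 5 kb (5 genes) had 0.16, 0.17 and 0.01. Between these lengths, the nuclear members lay above other genes of their length in both comparisons with DMSO: from 0.6 to 0.8 kb, 20 members had 0.37 in 5C and 0.34 in 3C beside 0.21 and 0.24 in 140 other genes, and from 1.5 to 2.5 kb, 15 members had 0.24 and 0.28 beside 0.03 and 0.06 in 2150 other genes. The nuclear members also lay above such genes between DMSO replicate 2 and replicate 1, with 0.26 beside 0.23 and 0.11 beside 0.05 at these lengths. The mitochondrial mRNAs did not follow the length trend between the DMSO replicates, where mt-Nd3, mt-Co3 and mt-Atp6 were higher in replicate 2 and the other 10 were lower.

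**Figure D5:**
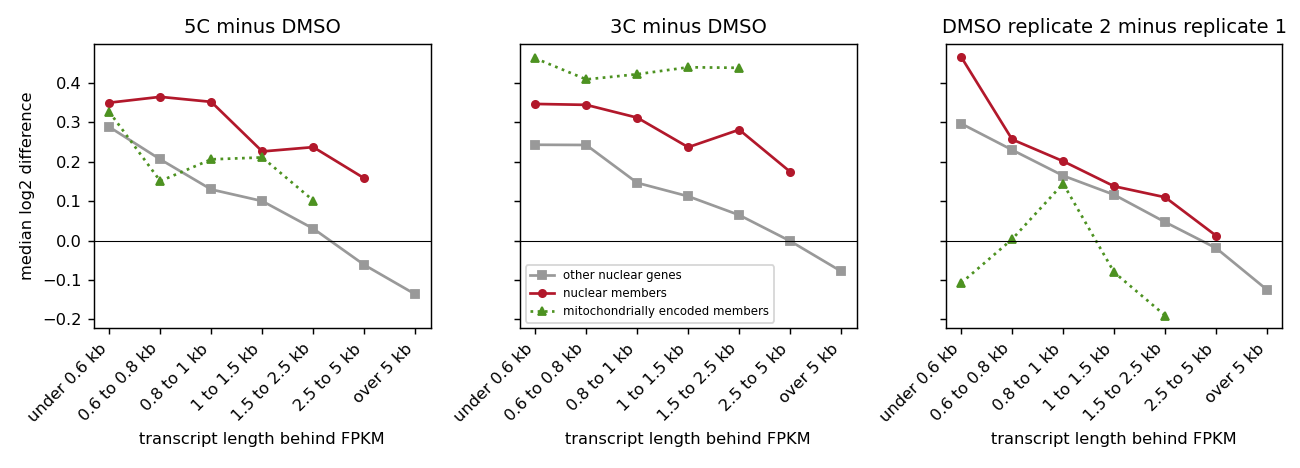
Median log2 difference of CPM (y axis) by the transcript length behind the deposited FPKM (x axis), for 5C minus DMSO, 3C minus DMSO and DMSO replicate 2 minus replicate 1, in nuclear members, mitochondrially encoded members and other nuclear genes of at least 10 CPM. Other nuclear genes fall from 0.29, 0.24 and 0.30 at the shortest lengths to -0.14, -0.08 and -0.13 at the longest, and nuclear members lie above them at each length shown.

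With the length trend of each library taken out by an offset, 25 members (23.6%) were higher in 5C, beside 15.9% of all genes, and 25 (23.6%) in 3C, beside 13.2%. The median log2 fold change was 0.18 in both. In 5C these were 25 of 93 nuclear members and 0 of 13 mitochondrial mRNAs by this edgeR fit, in which 3 of the 13 had an unadjusted p under 0.05. Without the offset, edgeR called 5 of the 13, DESeq2 7 and limma 2. In 3C, 10 of 13 mitochondrial (76.9%) and 15 of 93 nuclear members (16.1%) were higher. The nuclear share there was close to the 13.2% of all genes. Of the 4 mitochondrial mRNAs that shared no word with another gene, mt-Nd1 was among the 10 (edgeR adjusted p = 0.0104), while mt-Nd6, mt-Cytb and mt-Atp8 had edgeR adjusted p-values of 0.0538, 0.0618 and 0.114. One nuclear core subunit of complex I, Ndufs7, became lower in 5C (log2 fold change -0.28, edgeR adjusted p = 0.0299, from -0.14 and 0.323). For 5C against 3C the offset left Atp5g1 higher, beside 8.23% of all genes, and mt-Nd2, mt-Nd4 and mt-Nd4l lower. An offset for GC content ended the call of mt-Nd4 (edgeR adjusted p = 0.0683) and mt-Nd2 (0.143), and limma on log2(FPKM + 1) gave adjusted p-values of 0.070 and 0.0574 for them.

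DMSO replicate 1 decided much of the count. Without it, 27 members (25.5%) were changed in 5C and 19 (17.9%) in 3C, beside 12.9% and 10.7% of all genes that were higher. Without DMSO replicate 2, the counts were 63 (59.4%) and 66 (62.3%), beside 13.9% and 12%. The difference lay in the nuclear members, of which 20 were called in 5C and 7 in 3C when DMSO replicate 1 was left out and 58 and 53 when replicate 2 was. Of the 13 mitochondrial mRNAs, 7 were called in 5C and 12 in 3C without replicate 1, and 5 and 13 without replicate 2. The median log2 fold change of the nuclear members in 5C was 0.17 in the first case and 0.43 in the second. For the nuclear members, leaving out 5C replicate 1 or 2 gave medians of 0.30 and 0.27 in 5C. Leaving out 3C replicate 1 or 2 gave 0.24 and 0.26 in 3C. Fewer members were called in these fits than with all libraries. In 3C the share of nuclear members called was then below that of all genes, both directions counted. Fewer were also called in 5C without a 3C library, which enters the comparison of 5C with DMSO only through the spread. Ndufa4l2, Ndufv3, Atp5g1 and Atp5g3 kept an adjusted p under 0.05 in 5C in each of the 25 alternative fits. In 3C, Ndufa4l2 did so in each, and mt-Nd2 in each that held mitochondrial genes.

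Sequence shared with other genes touched many members. Of the 112, 54 shared at least 10% of the 50-base words of their longest transcript with transcripts of another gene, and 20 shared over 50%, pseudogenes and overlapping genes included. Of the 57 tested members under 10%, 19 were higher in 5C (33.3%) and 17 in 3C (29.8%). Ndufv3 shared 12.2%, Ndufa6 19.7% and Atp5g1 13.3%, so these levels are uncertain, while Uqcrfs1, Ndufv1 and Cox7a2 shared none.

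The promoters of the nuclear members were read from the RefSeq table for GRCm38.p6, which held 77 of the 99 symbols with 82 promoters (250 bases before to 50 after the start). Motifs of factors known for respiratory genes were searched on both strands. NRF1 (GCGCATGC) was found in 14.6% of member promoters and 2.71% of all 32851, YY1 (AAGATGGC) in 13.4% and 2.75%, the estrogen-related receptor motif (AAGGTCA) in 9.76% and 4.72%, the ETS motif of GABPA (CCGGAAGT) in 6.10% and 3.89%, and the cAMP response element (TGACGTCA) in 4.88% and 1.79%. At least 1 of the 5 motifs was in 42.7% of member promoters and 14.7% of all. The cAMP response element is its own reverse complement, and a longer NRF1 palindrome matches on both strands, for which each promoter was counted once. A match describes these letters and does not show binding.

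The 250 bases before the start are printed for 4 genes that the results above turn on, with a motif in capitals where there was one. Each was found once in GRCm39, on the reverse strand, at chr15:82238493-82238742 (Ndufa6, NRF1), chr2:73741671-73741920 (Atp5g3, estrogen-related receptor), chr13:30729300-30729549 (Uqcrfs1, cAMP response element) and chr11:95966458-95966707 (Atp5g1, none of the 5 motifs). They are shown 5′ to 3′ in the direction of the gene.
Ndufa6: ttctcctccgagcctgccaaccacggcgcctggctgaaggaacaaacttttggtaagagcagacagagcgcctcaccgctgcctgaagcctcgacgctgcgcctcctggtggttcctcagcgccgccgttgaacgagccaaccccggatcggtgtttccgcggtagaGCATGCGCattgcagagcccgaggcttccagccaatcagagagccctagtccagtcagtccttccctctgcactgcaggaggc
Atp5g3: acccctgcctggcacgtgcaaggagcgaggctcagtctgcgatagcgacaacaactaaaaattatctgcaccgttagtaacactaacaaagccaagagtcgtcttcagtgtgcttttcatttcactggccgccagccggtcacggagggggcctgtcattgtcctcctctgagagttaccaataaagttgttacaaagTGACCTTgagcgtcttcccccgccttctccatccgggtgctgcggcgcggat
Uqcrfs1: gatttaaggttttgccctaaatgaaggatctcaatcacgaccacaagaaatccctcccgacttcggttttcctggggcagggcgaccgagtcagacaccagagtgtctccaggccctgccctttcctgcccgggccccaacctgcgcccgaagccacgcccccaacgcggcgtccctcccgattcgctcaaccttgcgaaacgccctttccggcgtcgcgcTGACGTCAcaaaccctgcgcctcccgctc
Atp5g1: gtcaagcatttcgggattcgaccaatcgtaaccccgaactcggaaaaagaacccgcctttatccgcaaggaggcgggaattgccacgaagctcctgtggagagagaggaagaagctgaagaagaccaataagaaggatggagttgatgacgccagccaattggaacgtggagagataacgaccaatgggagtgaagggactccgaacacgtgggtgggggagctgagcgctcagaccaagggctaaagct
Of all 93 tested nuclear members, 35.5% were higher in 5C and 29.0% in 3C. Whether a motif went with a call was not tested. Among the 12 tested members with an NRF1 match, 4 were higher in 5C and 2 in 3C, and of the 11 with a YY1 match 2 were higher in each. Of the 8 with an estrogen-related receptor match, 2 were higher in each cocktail, and of the 5 with an ETS match, 3 in 5C and 1 in 3C. The cAMP response element was in Ndufa10, Ndufa11, Ndufb2 and Uqcrfs1, of which 2 were higher in 5C and 3 in 3C. Between 5C, which contains forskolin, and 3C, none of the 4 passed the edgeR test.

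Genes outside the members that serve the pathway were examined from fixed lists. The counts of all lists that follow stand beside the shares over all genes tested. These were 15.6% higher and 13.1% lower in 5C, and 12.7% higher and 11.8% lower in 3C, against DMSO. Of 41 tested assembly factors with other names, 6 were higher in 5C and 3 in 3C. Of 21 electron carriers and coenzyme Q enzymes, 5 were higher and 1 lower in 5C, and 6 were higher in 3C. Cycs, cytochrome c itself, had 46.6 and 56.7 CPM in DMSO, 59.5 and 51.1 in 3C and 55.2 and 53.4 in 5C, with overlapping groups. Of 78 mitochondrial ribosomal proteins, 6 were higher in 5C and 8 in 3C. None of 16 genes of mitochondrial DNA replication, transcription and mRNA handling passed the edgeR test in any comparison, with 3 in 5C, 2 in 3C and 4 in 5C against 3C at an unadjusted p under 0.05. DESeq2 and limma called 0 against DMSO, and 2 and 1 in 5C against 3C. The edgeR fit with the length offset described above called 1 higher and 1 lower in 3C, 0 in 5C and 1 lower in 5C against 3C. Their median log2 fold change was -0.08 in 5C and 0.09 in 3C.

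Of 11 nuclear regulators of respiratory genes, 1 was higher and 1 lower in each cocktail. Ppargc1a, a coactivator of mitochondrial biogenesis, had 2.89 and 2.02 CPM in DMSO, 7.55 and 7.50 in 3C and 5.07 and 6.07 in 5C. The groups were separate, with log2 fold changes of 1.20 in 5C (SE 0.23, edgeR adjusted p = 0.0044) and 1.59 in 3C (SE 0.24, edgeR adjusted p = 0.00112). The lower gene, named after its values were seen, was Pprc1, another coactivator of that family, with -0.34 in 5C and -0.37 in 3C. Tfam, which packages mitochondrial DNA and helps to start its transcription, had 37.2 and 36.4, 37.6 and 36.0, and 38.2 and 39.8 CPM and did not pass the test.

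Of 17 citric acid cycle enzymes, 5 were higher and 1 lower in 5C and 4 were higher in 3C. Of 7 tested nucleotide carriers, uncoupling proteins and porins, 2 were higher and 1 lower in 5C, and 1 was higher and 1 lower in 3C. The lower gene in both, Ucp2, named after its values were seen, is a carrier of the uncoupling protein family that macrophages also express. It fell from 599 and 621 CPM in DMSO to 302 and 304 in 3C and 294 and 269 in 5C. The log2 fold change was -1.04 in 3C and -1.10 in 5C. Of 11 mitophagy and fission or fusion genes, 2 were higher in each cocktail and 1 was lower in 3C. Of 11 hypoxia response genes, 10 were higher in 5C and 9 in 3C, with median log2 fold changes of 0.64 and 0.62. Cytosolic ribosomal proteins, which are also short, had 22 of 82 higher in 5C and 5 in 3C, and 10 and 3 with the length offset. Their median log2 fold change was 0.26 in 5C and 0.19 in 3C, beside 0.27 in each for the members. With the offset it was 0.14 and 0.08, beside 0.18 in each for the members. DESeq2 called 40 of the 82 in 5C and 20 in 3C.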

How the data were processed

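Bulk RNA-seq of 6 libraries, 2 each of DMSO, 3C and 5C, was used, grouped by their labels. The authors deposited counts per gene, not normalized, and FPKM. Reads were paired and mapped to GRCm39. The submitters' processing notes name featureCounts, Subread and DESeq2. Aligner, annotation release, strand setting and the handling of reads with several matches are not given in the sources used here. Totals were 65916573 to 69245895 counts. Whether 1 count is 1 fragment is unknown, so Wilson intervals (95%) cover counting error only. The study's methods call the experiments pooled without saying what was pooled.

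Counts were tested with edgeR 4.0.16 (quasi-likelihood, TMM, default low-count filter, all 6 libraries in 1 fit, R 4.3.3), with Benjamini-Hochberg adjustment over 19135 genes. Residual degrees of freedom were 3, the common biological coefficient of variation was 18.4% and normalization factors were 0.974 to 1.02. CPM are counts scaled to a library total of 1000000. DESeq2 1.42.0 on counts and limma 3.58.1 on log2(FPKM + 1) and log2(FPKM + 0.1), for genes above 0.5 FPKM, were alternatives, as were other size factors, filters, a replicate block and leaving out each library. Offsets for length (lowess, span 0.3) and GC content and the sum with nuclear copies were added after seeing the data. The fit was checked on simulated data. Exact permutation tests (scipy 1.17.1) were two-sided. Figures show FPKM plus a small offset where the axis is logarithmic.

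All 112 members matched GENCODE M39 by gene ID. Members and lists were chosen with earlier results of these data known. Values by library are given for the 13 mitochondrial mRNAs, for up to 5 changed members with the largest and 5 with the smallest log2 fold change per comparison among those of at least 10 CPM, for alternative subunit families, and for selected catalytic subunits, Atpif1, Ppargc1a, Tfam and Cycs. Members named otherwise, in counts of 5 or fewer or for missing tests, were named after their values were seen. Shared sequence was measured as the percent of 50-base words of the longest transcript found in transcripts of other genes. Promoters came from RefSeq. No per-sample column was left unused.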

Additional observations from a re-analysis of the deposited data

Results flagged for a closer look

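Data outside the comparisons held counts for rows close to the members. Of the 14 pseudogene rows that the name rule dropped, 10 had a count, and 7 had more than 3 counts in every library, 3 being the number of counts that a count of 0 allows. Ndufa12-ps reached 1489 counts in 5C replicate 2, with 1104 and 964 in DMSO, 1174 and 761 in 3C and 815 in 5C replicate 1. None of the 8 pseudogene rows tested passed the edgeR test, with 1 at an unadjusted p under 0.05 in 3C against DMSO, 0 in the other comparisons, 0 called by DESeq2 and 1 by limma in 3C.

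The 8 nuclear copies of mitochondrial mRNAs summed to 188004 counts in the library with the fewest and 257528 in the library with the most. Of the 6 copies tested, edgeR called 6 higher in 3C, 0 in 5C (3 at an unadjusted p under 0.05, 1 called by DESeq2) and 2 lower in 5C against 3C. Reads shared with the mitochondrial genes could not be separated from reads of the copies in these files.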

How the results depend on the processing

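Of 106 members, 38 were changed in 5C and 39 in 3C, both against DMSO, and 4 in 5C against 3C; values below keep this order. A limit of 0.5 on the absolute log2 fold change gave 12, 3 and 0. Fitting only the 4 libraries compared gave 23 in 5C. The length offset gave 25 in 3C. For 5C against 3C, nuclear genes alone gave 1, which leaves out the mitochondrial genes by construction, DESeq2 7, limma 2 with either pseudocount and the GC offset 2. Leaving out a library gave 16 to 63, 13 to 66 and 0 to 6, and with the length offset 13 to 32, 3 to 32 and 1 to 7. With the length offset and without 3C replicate 1 or 2, the share of members called in 3C was below that of all genes, both directions counted. The median log2 fold change of the members in 3C was then 0.16 and 0.19, beside -0.01 over all genes in each fit. Such a comparison is not given here for the other fits with this offset that left out a library. The mitochondrial share differed by 0.0592 to 0.128, 0.261 to 0.329 and -0.227 to -0.176 percentage points without 1 library. As a share of summed FPKM it differed by 0.182, 0.578 and -0.395 points, and with nuclear copies by 0.392 in 3C against DMSO and -0.267 in 5C against 3C. Both measures have a larger base, with DMSO means of 2.03% and 1.19% beside 0.907%. The ratios of group means were 1.09, 1.29 and 0.848 for FPKM and 1.10, 1.33 and 0.831 with copies. They were 1.10, 1.33 and 0.832 for the share of counts. Except where a value shows it, the cause was not tested.

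The replicate block gave 40, 36 and 4 changed members. The replicate numbers did not pair the samples: correlations of deviations between same-numbered libraries were 0.000683, -0.0306 and 0.0161. No named member reversed. Of the 21, 28 and 4 named members changed in the 3 comparisons, 4, 2 and 0 passed the test under each of the 25 settings that held the gene, and 9, 17 and 1 under each of the 13 such settings that kept all libraries; the setting of nuclear genes alone held no mitochondrial gene, and the limit on fold change was not applied here. With 2 libraries per group and 3 residual degrees of freedom, small differences could not be resolved, and low counts such as those of Cox4i2 limit its value.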

Other observations

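Of 21 electron carriers and coenzyme Q enzymes, 5 were higher and 1 lower in 5C and 6 were higher in 3C. Over all genes, 15.6% were higher in 5C and 12.7% in 3C. The median log2 fold changes of the list were 0.09 and 0.07, and the genes named here were chosen after their values were seen. Etfa, Etfb and Etfdh, which carry electrons from fatty acid oxidation to coenzyme Q, and Coq8a and Coq8b, which serve coenzyme Q synthesis, passed the edgeR test as higher in 5C and in 3C against the shared DMSO libraries. Coq8a had log2 fold changes of 1.51 in 5C and 1.42 in 3C. Gpd2, the glycerol 3-phosphate dehydrogenase of the inner membrane, was lower in 5C (log2 fold change -0.35, edgeR adjusted p = 0.0253).

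Among the citric acid cycle enzymes, Idh2, Suclg1, Suclg2 and Fh1 were higher in both cocktails, Pdha1 was higher in 5C and Idh3b was lower in 5C. Pink1 and Bnip3, which act in the removal of mitochondria, were higher in both, and Fundc1, another such gene, was lower in 3C. Slc25a4, an adenine nucleotide carrier, rose in 5C (log2 fold change 0.34, edgeR adjusted p = 0.00605).

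A subunit row with uneven replicates was Ndufa12, at 7.80 and 16.6 CPM in DMSO, 18.5 and 20.3 in 3C and 17.4 and 8.71 in 5C. Cox6c was at 31.8 and 57.9, 61.4 and 59.2, and 60.8 and 65.8 CPM. Neither passed the edgeR test in any comparison.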
